A study of Homo sapiens with 24 samples.

Results

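The 10 genes described here act in the oxidative stress response and were followed in cells that expressed a single microRNA (miRNA): the repressor BACH1, the activator NFE2L2 (which encodes the protein NRF2), KEAP1, and the 7 antioxidant genes HMOX1, NQO1, GCLC, GCLM, TXNRD1, SRXN1 and SLC7A11. They were taken by symbol from the 29794 genes counted, and all 10 passed the filter on low counts in both batches. The 24 RNA-seq libraries were made from the Flp-In T-REx 293 line, which derives from human embryonic kidney, transduced with a lentiviral vector that carries a miRNA hairpin in the intron of a doxycycline-inducible GFP gene, or with the same vector lacking a hairpin (empty vector, EV). Control and miRNA cells alike were given 1 µg/mL doxycycline for 7 days and 1 mg/mL geneticin for 6 days. Each replicate was its own transduction and culture, and the level of each miRNA was not analysed here. Batch 1 held 2 libraries each of EV, miR-1 and miR-122, and batch 2 held 3 libraries each of EV, miR-155, miR-133a, miR-302a, miR-373 and miR-372. Each miRNA was compared with the EV libraries of its own batch, so the 5 comparisons of batch 2 share their controls, as do both of batch 1. The question was whether loss of BACH1 RNA with miR-155 went with higher levels of the genes that BACH1 represses.

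BACH1 and NRF2 both pair with small MAF proteins and compete for the same DNA element, the antioxidant response element (ARE), where BACH1 represses and NRF2 activates. KEAP1 holds NRF2 in the cytoplasm and directs its degradation, until oxidants or electrophiles modify KEAP1 and NRF2 accumulates. Heme binds BACH1, removes it from DNA and promotes its degradation, and HMOX1, which encodes the heme-degrading enzyme heme oxygenase 1, is the gene best known to be released from BACH1 in this way. BACH1 is itself a well-known target of miR-155.

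The mature miRNA sequences and the sites that pair with them are shown because they tell which of the 10 transcripts hold a match to which miRNA. The miRNA sequences are from RefSeq, with the seed (bases 2 to 8) in capitals. A seed is shared by miR-302a, miR-373 and miR-372, and the other miRNAs have seeds of their own.
miR-155: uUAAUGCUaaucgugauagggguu
miR-1: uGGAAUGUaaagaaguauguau
miR-122: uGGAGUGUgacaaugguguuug
miR-133a: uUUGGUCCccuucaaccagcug
miR-302a: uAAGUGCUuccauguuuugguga
miR-372: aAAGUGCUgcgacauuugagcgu
miR-373: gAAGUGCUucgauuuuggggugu

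A site was called an 8mer when it paired with bases 2 to 8 and had an A opposite base 1, a 7mer-m8 when it paired with bases 2 to 8 alone, and a 7mer-A1 when it paired with bases 2 to 7 and had that A. In the longest annotated 3′UTR of BACH1 (3315 bases; gene at chr21:30566392-31003071, plus strand, GRCh37) there were 4 sites for miR-155. They are a 7mer-m8 at chr21:30715984-30715990, an 8mer at chr21:30717332-30717339, and 7mer-m8 sites at chr21:30717393-30717399 and chr21:30717542-30717548, in this order below with the paired bases in capitals.
BACH1 site 1: gtgattacactggcAGCATTAtctcaggc
BACH1 site 2: cctataaacagtttAGCATTAAgggtttct
BACH1 site 3: atttcttaaaatttAGCATTActttaaat
BACH1 site 4: tctgtatattgcatAGCATTAcacattta

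Only 48 of 13039 tested genes with an annotated 3′UTR, BACH1 included, had 4 or more miR-155 sites, and 19.2% had at least 1. Among the other 9 genes, 5 had a miR-155 site in the 3′UTR. NFE2L2 and GCLM had 2 each, and TXNRD1, SRXN1 and SLC7A11 had 1 each. The TXNRD1 site is a 7mer-A1 at chr12:104744051-104744057, plus strand, near the end of the 3′UTR, 1852 bases into 1886. It is shown because TXNRD1 was the other member lower with miR-155, and the pair of miR-1 8mers is shown because both genes were lower with miR-1. The latter lie in the 3′UTRs of SRXN1 (chr20:627741-627748, minus strand) and SLC7A11 (chr4:139085735-139085742, minus strand), and each of these genes had a 7mer-A1 for miR-1 besides.
TXNRD1 miR-155 site: attaaaattaaaagGCATTAAtaatatcc
SRXN1 miR-1 site: ttaggccaggtaggACATTCCAgaggggct
SLC7A11 miR-1 site: ttatttctgcatccACATTCCAatcatatt

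HMOX1 and KEAP1 had no site for any of the 7 miRNAs in the 3′UTR (626 and 527 bases) or the open reading frame. For the seed that miR-302a shares with miR-373 and miR-372, BACH1 and GCLM had 1 site each in the 3′UTR and SLC7A11 had 3, against 30.1% of tested genes with at least 1. NQO1, whose product reduces quinones, had an 8mer for miR-122 in its reading frame and a 7mer-A1 for miR-1 in its 3′UTR.

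**Figure D1:**
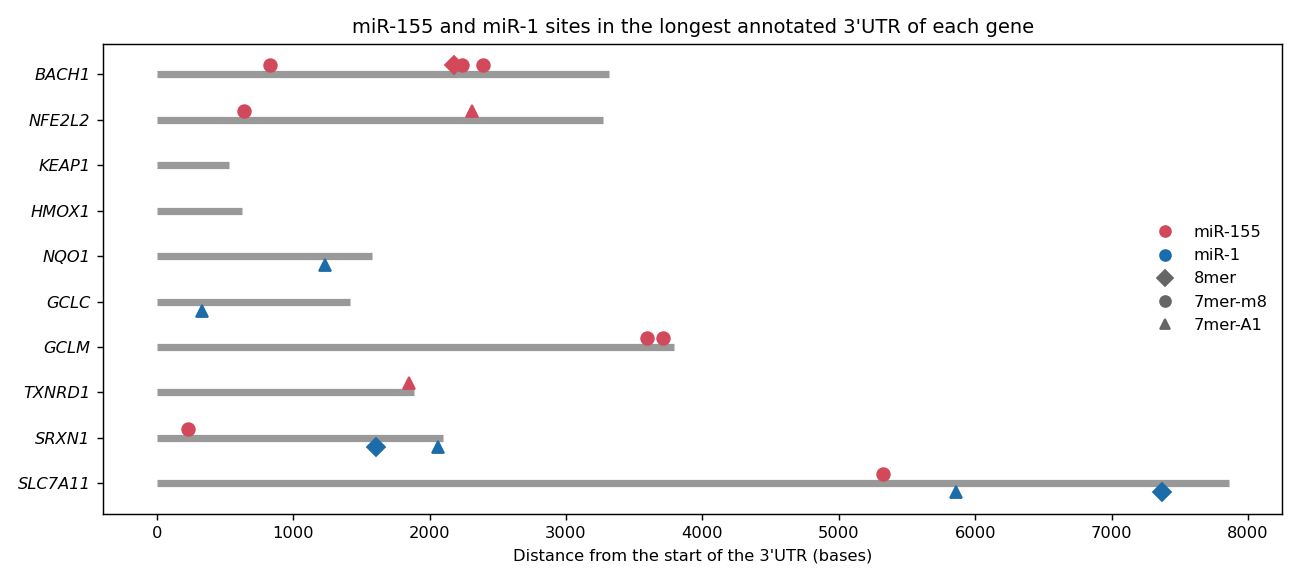
Positions of miR-155 (red) and miR-1 (blue) sites along the longest annotated 3′UTR of each of the 10 genes, in bases from its start. Symbols give the site type. BACH1 carried 4 miR-155 sites, SRXN1 and SLC7A11 each carried an 8mer and a 7mer-A1 for miR-1, and HMOX1 and KEAP1 carried neither.

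The ARE core was searched as TGACNNNGC on both strands of RefSeq promoters (250 bases before to 50 after a start, GRCh38.p14). It was present in 13.3% of 35116 promoters. Of the 10 genes, 8 were in the promoter table, with 13 promoters between them, and 3 of these genes (KEAP1, GCLM and TXNRD1) held a match. The 13.3% is a share of promoters and not of genes. Elements outside the searched span were not looked for, so a gene without a match here may still hold an ARE. HMOX1 and SLC7A11 were not in the table. A match in GCLM (chr1:93909456-93909464) and a match in TXNRD1 (chr12:104215680-104215688) are shown in the direction of the motif, with the match in capitals.
GCLM promoter: ggaagacaaTGACTAAGCagaaatcgt
TXNRD1 promoter: cacgggctaTGACTTCGCtgttgtcac

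Total exon counts per library ran from 20153452 to 21595191 in batch 1 and from 13047400 to 35040778 in batch 2, and replicates of every group differed by more than counting noise. In miR-155 the chi-square per degree of freedom was 18.9 and 21.4 for the pairs with replicate 2, against 2.46 for replicates 1 and 3. Pairs with replicate 2 also differed most in miR-133a, miR-302a and miR-372, but not in EV of batch 2 or miR-373. Of 7 markers of the cell line, 5 were counted, with VIM, KRT8 and KRT18 abundant and PAX2 and NEFM low. Of 9 markers of other cell types, NANOG was at 0 in every library, ALB, PTPRC, MYH7, POU5F1 and HBB did not exceed 5 counts, and COL1A1 was the highest. In these bulk libraries a lower level in every cell and a loss from a share of the cells cannot be told apart.

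In the EV libraries the 10 genes spanned a wide range of expression. Levels are compared between genes as RPKM, in which reads are scaled to the length counted and to the library total. In batch 2, TXNRD1, which encodes the cytosolic thioredoxin reductase, was the highest at 54.5 ± 1.6 RPKM (SD, n = 3). It was followed by KEAP1 at 22.2 ± 1.6, GCLC at 14.2 ± 0.27, BACH1 at 13.5 ± 0.74 and GCLM at 13.5 ± 1.2, where GCLC and GCLM encode the catalytic and modifier subunits of the enzyme that starts glutathione synthesis. NFE2L2 stood at 11.6 ± 0.71, SRXN1 (sulfiredoxin, which repairs oxidised peroxiredoxins) at 10.8 ± 4.4, HMOX1 at 7.28 ± 1.2 and SLC7A11 (the cystine importer subunit xCT) at 7.24 ± 0.36 RPKM. NQO1 was the lowest at 1.42 ± 0.12. TXNRD1 and KEAP1 did not overlap their neighbours in this order and NQO1 lay below all others, whereas each gene from GCLC to HMOX1 overlapped the next. The order in batch 1 was the same except that SRXN1 stood above NFE2L2, with which it overlapped. SRXN1 was counted over only 395 bases and had between 32 and 128 reads per library, so its values rest on few reads.

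With miR-155, BACH1 RNA fell to 46.3% of the EV level, TXNRD1 fell to 73.5%, and no member passed the test in the direction of an increase. HMOX1 was higher in all 3 miR-155 libraries than in any EV library but did not pass the test in the main fit, and was called higher in some alternatives. Thus 2 of the 10 genes were called at an adjusted p below 0.05, both lower, where 7.63% of 14054 tested genes were called (4.81% lower and 2.82% higher). The median log2 fold change of the 10 was 0.09, and that of all tested genes was near 0.

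BACH1 was at 95.3, 88.2 and 85.8 CPM (read counts scaled to the effective library total) in the EV libraries and at 43.9, 37.4 and 43.2 CPM with miR-155. The groups did not overlap, and the gap between them was larger than the spread within either. The log2 fold change was −1.11 ± 0.090 (SE), a ratio to control of 0.463 (95% interval 0.406 to 0.527; edgeR quasi-likelihood test, Benjamini-Hochberg adjusted p = 3.7e-07). By p-value BACH1 ranked 5 of the 14054 genes, and by log2 fold change it was number 107 from the lowest. Of the 48 genes with at least 4 miR-155 sites 37.5% were called lower, against 28.3% with 3 sites, 24.7% with 2, 15.0% with 1 and 2.06% with none. The annotation places 7 other genes on the same strand within the span of BACH1, among them BACH1-IT1 and LINC00189, and how reads shared with them were counted was not examined. The summed level of the 9 markers of other cell types was 9.33 to 14.7 CPM with miR-155 and 12.4 to 15.6 in EV. That of the 5 counted markers of the cell line was 1577 to 1711 CPM with miR-155 and 1301 to 1318 in EV, and VIM (log2 fold change 0.29, edgeR adjusted p = 0.018) and KRT8 (0.47, 0.0016) rose. The part of these markers in the results with miR-155 was not tested.

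The activator and its inhibitor did not pass the test. NFE2L2, with 2 miR-155 sites in its 3′UTR, was at 66.1, 58.5 and 62.1 CPM in EV and 59.4, 77.1 and 60.7 with miR-155, a log2 fold change of 0.08 (95% interval −0.13 to 0.29). Its miR-155 libraries lay on both sides of the controls. KEAP1 was at 72.5, 80.6 and 83.7 CPM in EV and 86.1, 103 and 85.8 with miR-155. The KEAP1 groups did not overlap, but the log2 fold change of 0.22 had an interval of −0.05 to 0.48 and an edgeR adjusted p of 0.31.

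HMOX1 was at 11.6, 14.6 and 16.3 CPM in EV and at 21.3, 33.2 and 21.4 CPM with miR-155. Every miR-155 library was above every control, and replicate 2 was the highest. The ratio was 1.78 (95% interval 1.15 to 2.75; log2 fold change 0.83 ± 0.30), with an unadjusted p of 0.012 and an edgeR adjusted p of 0.096. By size of increase HMOX1 was number 92 of 14054 genes, and by p-value number 1728. The adjusted p fell below 0.05 in 4 alternatives, namely the likelihood ratio test (0.044), no filter on low counts (0.00014), a fit of only the compared groups (0.029) and the replicate block (0.014). It also did so without the replicate 2 libraries of every group (0.023), where the log2 fold change was 0.61. Replicate numbers did not pair the miR-155 libraries with those of EV, which limits what the replicate block shows here.

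TXNRD1 was at 297, 309 and 315 CPM in EV and at 239, 215 and 223 CPM with miR-155. The groups did not overlap, and the log2 fold change was −0.44 ± 0.097, or 73.5% of control (edgeR adjusted p = 0.0072). This gene holds an ARE match in its promoter and a single miR-155 site, and it moved in the same direction as BACH1. It was called in every alternative fit and with any library left out, with log2 fold changes from −0.48 to −0.41.

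The other 5 antioxidant genes were not called with miR-155, and for none of them did the 3 miR-155 libraries separate from the controls. NQO1 was at 4.05, 4.81 and 4.48 CPM in EV and 5.09, 6.04 and 4.6 with miR-155 (log2 fold change 0.23, 95% interval −0.28 to 0.74). GCLM had a log2 fold change of 0.15 (−0.19 to 0.48) and GCLC of −0.06 (−0.23 to 0.12). For SLC7A11 the value was 0.10 (−0.10 to 0.30), and for SRXN1, the sparsest, −0.11 (−0.70 to 0.48). These intervals leave out an increase as large as the HMOX1 point estimate for NQO1, GCLC, GCLM, SRXN1 and SLC7A11.

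**Figure D2:**
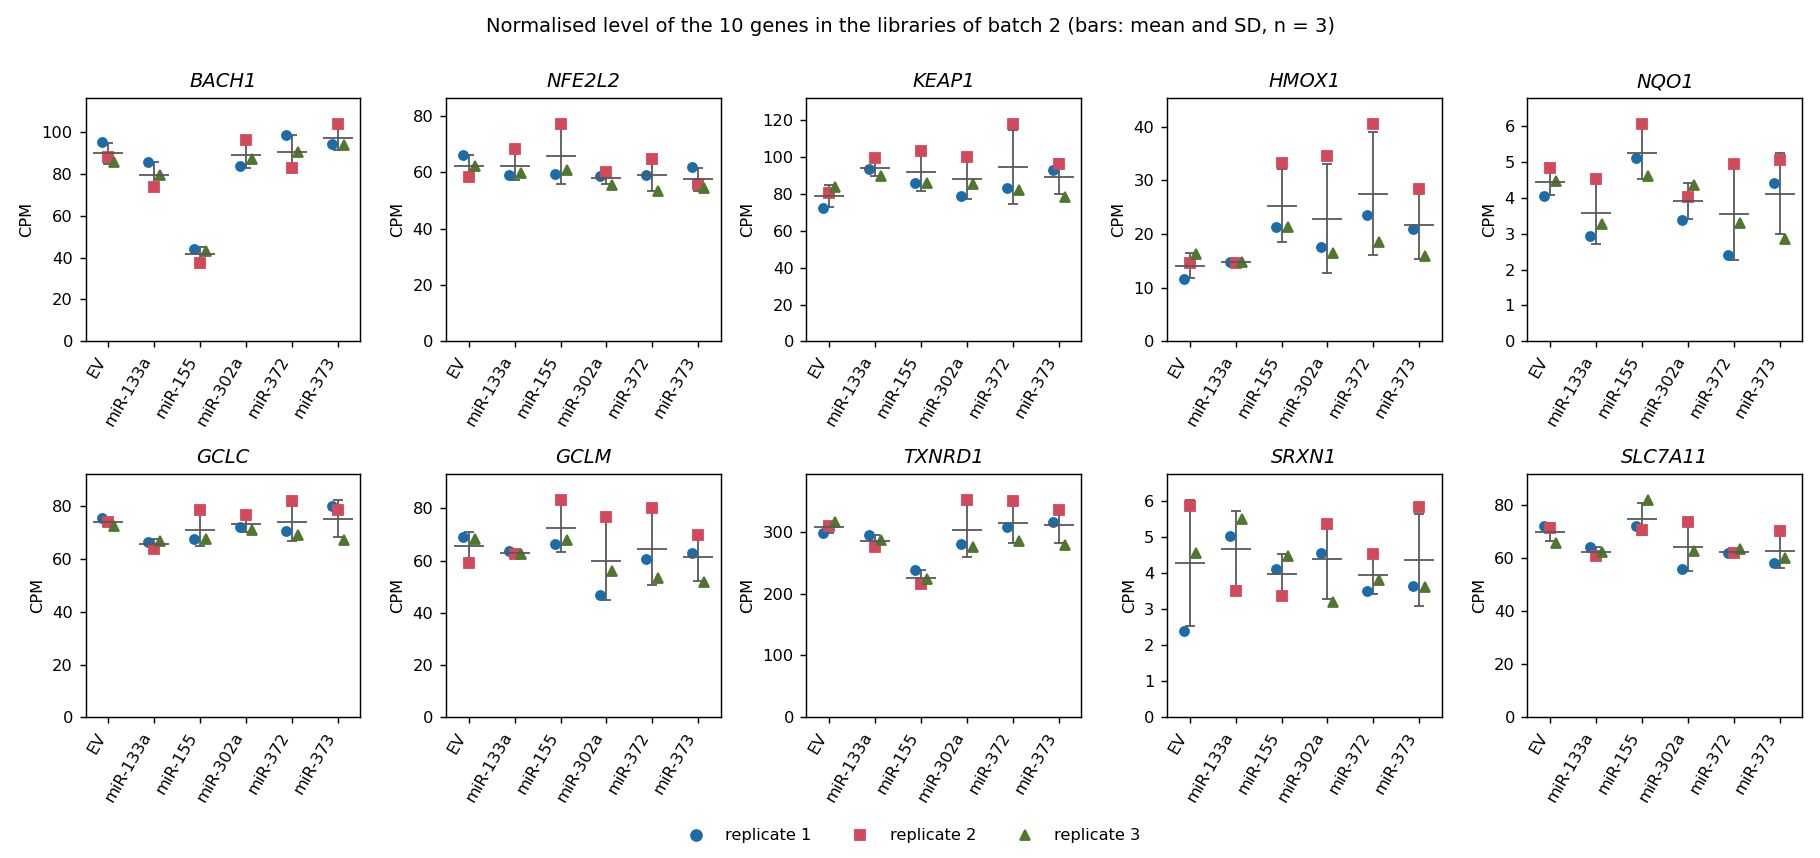
Level of each of the 10 genes in CPM in the 18 libraries of batch 2, by group. Points are libraries, marked by replicate number, and bars are the mean and SD of 3 libraries. BACH1 and TXNRD1 were lower in the 3 miR-155 libraries than in all 15 others, and in miR-155 and each miRNA of the shared seed HMOX1 was highest in replicate 2.

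The other miRNAs of batch 2 served to ask whether these changes went with miR-155 in particular. BACH1 was lower with miR-155 than with each of them. In the direct comparisons its log2 fold change was −0.94 against miR-133a, −1.10 against miR-302a, −1.12 against miR-372 and −1.23 against miR-373 (edgeR adjusted p = 5.0e-07, 1.3e-07, 8.1e-08 and 4.7e-08). TXNRD1 was also lower in each, by −0.34, −0.42, −0.48 and −0.46 (edgeR adjusted p = 0.020, 0.0050, 0.0017 and 0.0025). These were the only members called, 2 of 10 in each comparison, where 16.7%, 17.3%, 18.8% and 18.1% of tested genes were called. Of all tested genes, 8.14%, 8.74%, 9.50% and 9.32% were lower and 8.61%, 8.58%, 9.26% and 8.82% were higher with miR-155. The TXNRD1 call against miR-133a was lost, at an edgeR adjusted p from 0.063 to 0.083, when miR-133a replicate 1 or 3 or miR-155 replicate 2 or 3 was left out.

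HMOX1 did not separate miR-155 from the miRNAs that share the other seed. It was at 17.6, 34.6 and 16.5 CPM with miR-302a, at 23.6, 40.5 and 18.6 with miR-372 and at 21.0, 28.5 and 15.8 with miR-373. These levels lie within or around those of miR-155, whereas BACH1 was at 83.7 to 96.0, 82.7 to 98.4 and 93.5 to 104 CPM in the same libraries. The log2 fold change of HMOX1 between miR-155 and miR-302a was 0.13 (95% interval −0.48 to 0.73), between miR-155 and miR-372 −0.10 (−0.70 to 0.49), and between miR-155 and miR-373 0.23 (−0.37 to 0.83). With miR-133a, HMOX1 was at 14.8, 14.6 and 14.9 CPM, close to EV, and the difference of miR-155 from it was 0.78 (0.15 to 1.40; edgeR adjusted p = 0.084).

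Replicate numbers paired the libraries of miR-155 with those of miR-133a, miR-302a and miR-372, and the fit with the replicate block is therefore given where it changed the calls. Against miR-133a it called HMOX1 (0.74, edgeR adjusted p = 0.012) and SLC7A11 (0.26, 0.046) as higher with miR-155, which made 4 members. Against miR-372 it called NQO1 (0.59, 0.037) and SLC7A11 (0.26, 0.043) as higher, again 4 members. Without the block the adjusted p of SLC7A11 was 0.063 against miR-133a and 0.059 against miR-372. SLC7A11 was at 72.0, 70.7 and 81.9 CPM with miR-155 and from 60.7 to 64.1 with miR-133a and from 61.8 to 63.4 with miR-372, so these groups did not overlap.

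Against EV, HMOX1 was the only member called among the other miRNAs of batch 2. It rose with miR-372 (log2 fold change 0.94 ± 0.30, ratio 1.92, edgeR adjusted p = 0.047), 1 of 10 members where 11.4% of genes were called (6.56% lower and 4.82% higher). All 3 miR-372 libraries were above the controls, but the call was lost when any library other than miR-372 replicate 3 was left out, with an edgeR adjusted p from 0.064 to 0.25. Without miR-372 replicate 2 the log2 fold change was 0.56. Of the markers of other cell types, COL1A1 was 0.67 higher there too, at a mean of 20.5 CPM against 12.95 in EV. No other marker of that list exceeded 1.21 CPM in any library. The summed level of the 9 markers, mostly COL1A1, was 19.9 to 26.2 CPM against 12.4 to 15.6 in EV. In either group 2 of the 9 markers were at 0 in all libraries. Their part in the HMOX1 result was not tested. For miR-302a and miR-373 the HMOX1 log2 fold changes were 0.71 and 0.60 (edgeR adjusted p = 0.16 and 0.30), and leaving out replicate 2 of the miRNA lowered them to 0.27 and 0.35.

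No member was called with miR-302a (7.88% of genes called, 4.85% lower and 3.02% higher), miR-373 (5.13%, 3.30% lower and 1.83% higher) or miR-133a (5.34%, 3.97% lower and 1.37% higher). At an unadjusted p below 0.05 the edgeR test gave 1, 0 and 0 members, and the DESeq2 Wald test called 0 in each. BACH1 had log2 fold changes of −0.01, 0.11 and −0.17 there, with intervals of −0.19 to 0.17, −0.07 to 0.29 and −0.35 to 0.01. BACH1, which holds a site for the miR-302a seed, was thus not called lower with miR-302a or miR-373.

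**Figure D3:**
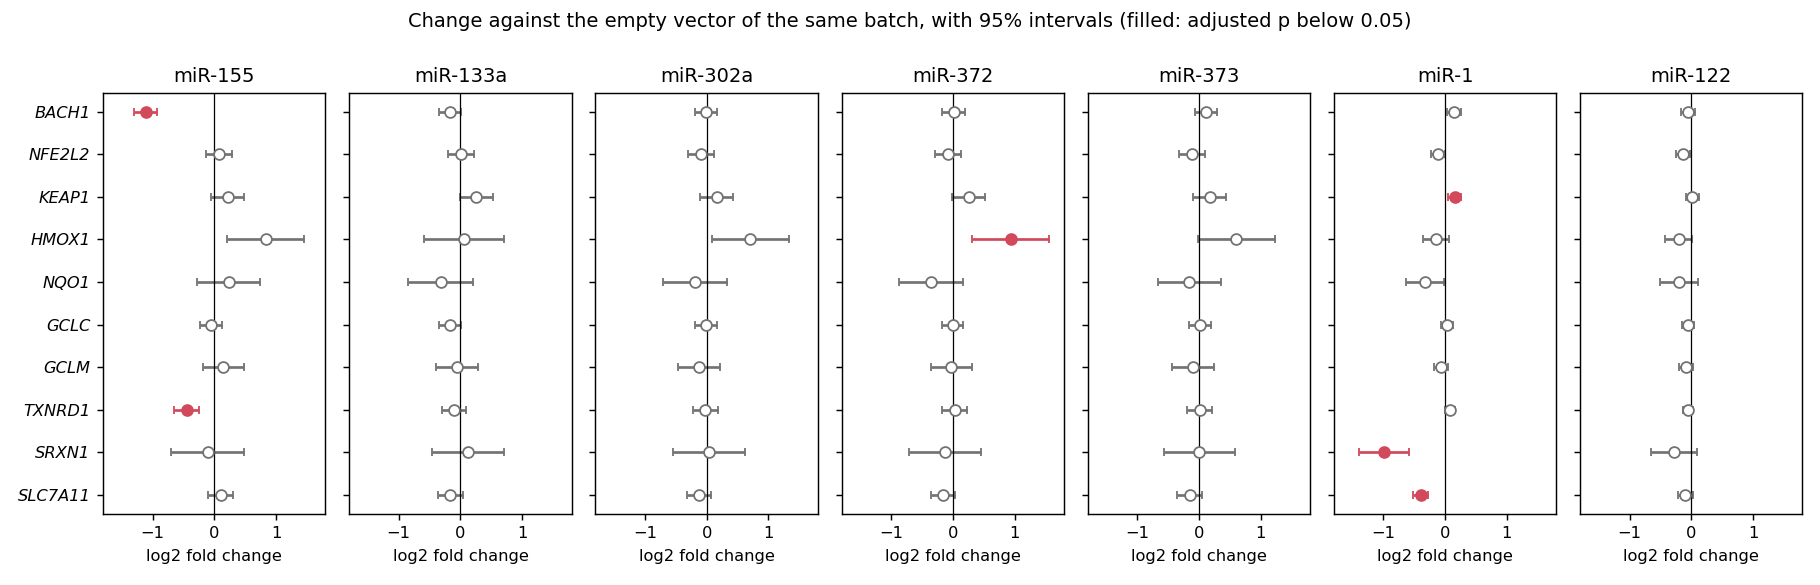
Log2 fold change of each gene against the empty vector of the same batch for the 7 miRNAs, with 95% intervals, and filled red points where the edgeR adjusted p was below 0.05. BACH1 (−1.11) and TXNRD1 (−0.44) were called with miR-155, HMOX1 (0.94) with miR-372, and SRXN1 (−0.99), SLC7A11 (−0.40) and KEAP1 (0.15) with miR-1.

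Across the 18 libraries of batch 2, BACH1 and HMOX1 had a Pearson correlation of −0.23 on the log2 CPM scale. BACH1 and TXNRD1 had 0.87, and HMOX1 and KEAP1 0.74. These values are descriptions, since libraries of a group share their miRNA, and the 3 miR-155 libraries lie far below the rest in BACH1. The genes whose levels were most like that of BACH1, of 10488 ranked, were SMAD5 (0.98), DSG2 (0.97), JARID2 (0.97), KDM5B (0.96) and NORAD (0.96). With Spearman's coefficient none of these stayed among the highest 5.

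**Figure D4:**
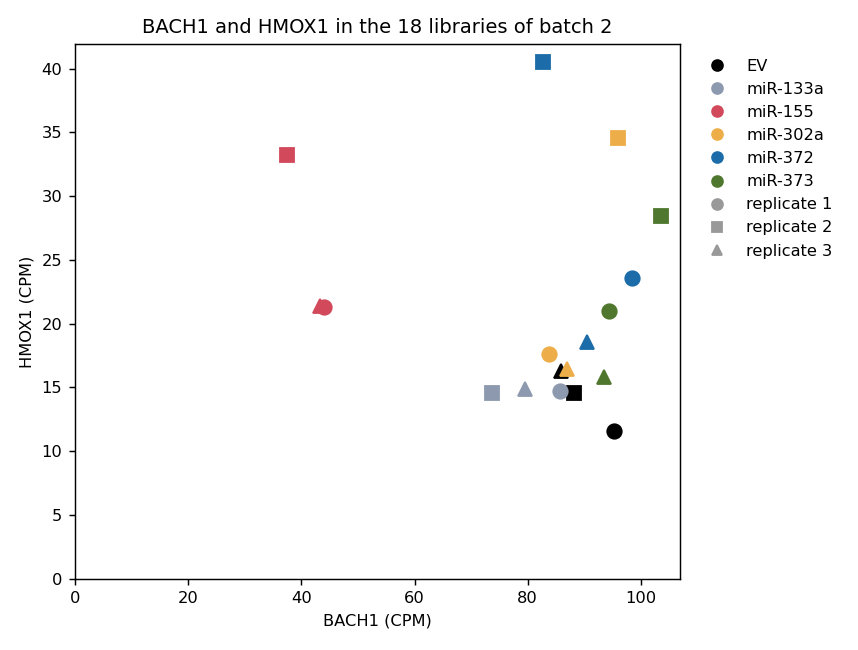
HMOX1 against BACH1 in CPM in the 18 libraries of batch 2, coloured by group and shaped by replicate number. The 3 miR-155 libraries had the lowest BACH1, between 37.4 and 43.9 CPM, while HMOX1 above 20 CPM was also found in libraries of each miRNA of the shared seed with BACH1 above 80 CPM.

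The wider pathway was read from 4 lists of genes, besides the 10 members, in the comparison of miR-155 with EV. Of all tested genes, 2.82% rose and 4.81% fell in this comparison. Of 13 small MAF partners and proteins that control the turnover of BACH1 and NRF2, 12 were tested and none was called by edgeR (median log2 fold change 0.04). Of 29 other NRF2 targets 23 were tested, 2 rose and none fell (median 0.10). The 2 were GSTP1, a glutathione transferase, and CBR3, a carbonyl reductase. GSTP1 was at 16.1, 16.5 and 16.6 CPM in EV and 22.4, 27.8 and 20.6 with miR-155 (0.52 ± 0.11, edgeR adjusted p = 0.0066), and CBR3 at 21.3, 21.6 and 20.7 against 26.7, 32.9 and 28.6 (0.47 ± 0.13, edgeR adjusted p = 0.039). Neither pair of groups overlapped. GSTP1 was higher still with each miRNA of the shared seed, whereas CBR3 was higher with miR-155 than with miR-302a (0.64), miR-372 (0.67) or miR-373 (0.80; edgeR adjusted p = 0.0027, 0.0016 and 0.00035).

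Of 7 genes of heme and iron handling, BLVRB rose with miR-155 and none fell (median 0.19). BLVRB, which encodes biliverdin reductase B, was at 52.0, 51.9 and 55.3 CPM in EV and 70.2, 76.0 and 68.8 with miR-155 (0.43 ± 0.11, edgeR adjusted p = 0.022). The ferritin chains FTL and FTH1, which store iron, had log2 fold changes of 0.44 each and did not pass (edgeR adjusted p = 0.065 and 0.057). For both, replicate 2 of miR-155 stood apart, at 559 CPM of FTL against 345 and 335 in the other libraries, and 463 CPM of FTH1 against 296 and 305. This is also the library with the highest HMOX1 of that group, and its part in the FTL and FTH1 values was not tested. None of 9 genes of the ATF4 response to amino acid shortage, which shares SLC7A11 as a target, was called (median 0.04). MAFK, a small MAF partner of BACH1, was lower with miR-155 than with each other miRNA of batch 2 (−0.44, −0.51, −0.41 and −0.39; edgeR adjusted p from 0.00088 to 0.0078), but not against EV (−0.26, 0.10). PIR, an iron-binding NRF2 target, was higher than with each of the 4 (0.70, 0.94, 0.74 and 0.88; edgeR adjusted p from 0.0015 to 0.013), and against EV it had 0.55 (0.070). Of the 23 other NRF2 targets tested, 5, 5, 4 and 5 were called higher with miR-155 than with miR-133a, miR-302a, miR-372 and miR-373. Called lower were 0, 2, 3 and 2, with GSTP1 and ABCC2 lower against each miRNA of the shared seed and IDH1 against miR-372. The list medians were 0.03, −0.04, −0.07 and 0.005. Of all tested genes, 8.58% to 9.26% were higher and 8.14% to 9.50% lower.

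In batch 1, 2 of the antioxidant genes fell with miR-1. SRXN1 fell to 50.4% and SLC7A11 to 75.9% of control, and KEAP1 rose to a ratio of 1.11. These were 3 of 10 members, where 24.5% of 14348 tested genes were called (13.7% lower and 10.8% higher), so the share is close to that of all genes. The median log2 fold change of the 10 was −0.09.

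SRXN1 was at 5.17 and 4.54 CPM in EV and at 2.01 and 2.89 with miR-1, a log2 fold change of −0.99 ± 0.19 (edgeR adjusted p = 0.0010). SLC7A11 was at 61.1 and 59.6 CPM in EV and at 48.3 and 43.3 with miR-1 (−0.40 ± 0.058, edgeR adjusted p = 5.6e-05). Neither gene overlapped its controls, and both calls held in every alternative. These are the members with a miR-1 8mer in the 3′UTR. Among genes tested in both batches, 36.7% of the 762 with such an 8mer were called lower, against 10.7% of the 9834 with no miR-1 site in the 3′UTR. GCLC, with an 8mer in its reading frame and a 7mer-A1 in its 3′UTR, had a log2 fold change of 0.03 (95% interval −0.07 to 0.13), and NQO1, with a 7mer-A1, had −0.32 (−0.63 to −0.01; edgeR adjusted p = 0.12).

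KEAP1 was at 79.5 and 83.1 CPM in EV and at 88.8 and 92.3 with miR-1 (0.15 ± 0.051, edgeR adjusted p = 0.033). This call was lost with the DESeq2 Wald test (adjusted p = 0.13), and in edgeR without EV replicate 1 (0.11), miR-1 replicate 1 (0.074) or miR-1 replicate 2 (0.20). BACH1 was at 93.7 and 82.2 CPM in EV and at 95.1 and 99.6 with miR-1. Its log2 fold change of 0.15 (0.03 to 0.26) had an edgeR adjusted p of 0.059. In edgeR, BACH1 was called higher with DESeq2 size factors (adjusted p = 0.049) and with no filter (0.043). A replicate block of crossed control numbers called it as well (edgeR adjusted p = 0.0088). That pairing is given by no label and was chosen after the data were seen, so its call carries little weight. BACH1 was not called in the other alternatives that kept every library of both groups. Its log2 fold change was 0.24 without EV replicate 1 and 0.058 without EV replicate 2. HMOX1 was at 12.5 and 13.7 CPM against 12.7 and 10.9 (−0.15, −0.36 to 0.07).

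With miR-122 no member was called by edgeR, where 5.92% of genes were (4.06% lower and 1.86% higher). At an unadjusted p below 0.05 there was 1 member, NFE2L2 (−0.14, adjusted p = 0.15), and the DESeq2 Wald test called 0. The intervals of the 10 values lay within −0.65 and 0.13, and the log2 fold changes within −0.28 and 0.02. NQO1, with its miR-122 8mer in the reading frame, had −0.19 (−0.50 to 0.11), and BACH1, with a 7mer-m8 in the reading frame, −0.05 (−0.17 to 0.06).

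Compared directly, miR-122 and miR-1 differed in 5 of 10 members, where 31.2% of genes were called (15.2% lower and 16.0% higher with miR-122). SRXN1 (0.71, edgeR adjusted p = 0.012) and SLC7A11 (0.30, 0.00064) were higher with miR-122, and BACH1 (−0.20, 0.0099), KEAP1 (−0.14, 0.047) and TXNRD1 (−0.13, 0.014) were lower. TXNRD1 was at 311 and 310 CPM with miR-1 and at 284 and 283 with miR-122. Leaving out 1 library reduced the number called to between 1 and 3. SLC7A11 was called each time, with log2 fold changes from 0.22 to 0.38, whereas TXNRD1 was lost each time.

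**Figure D5:**
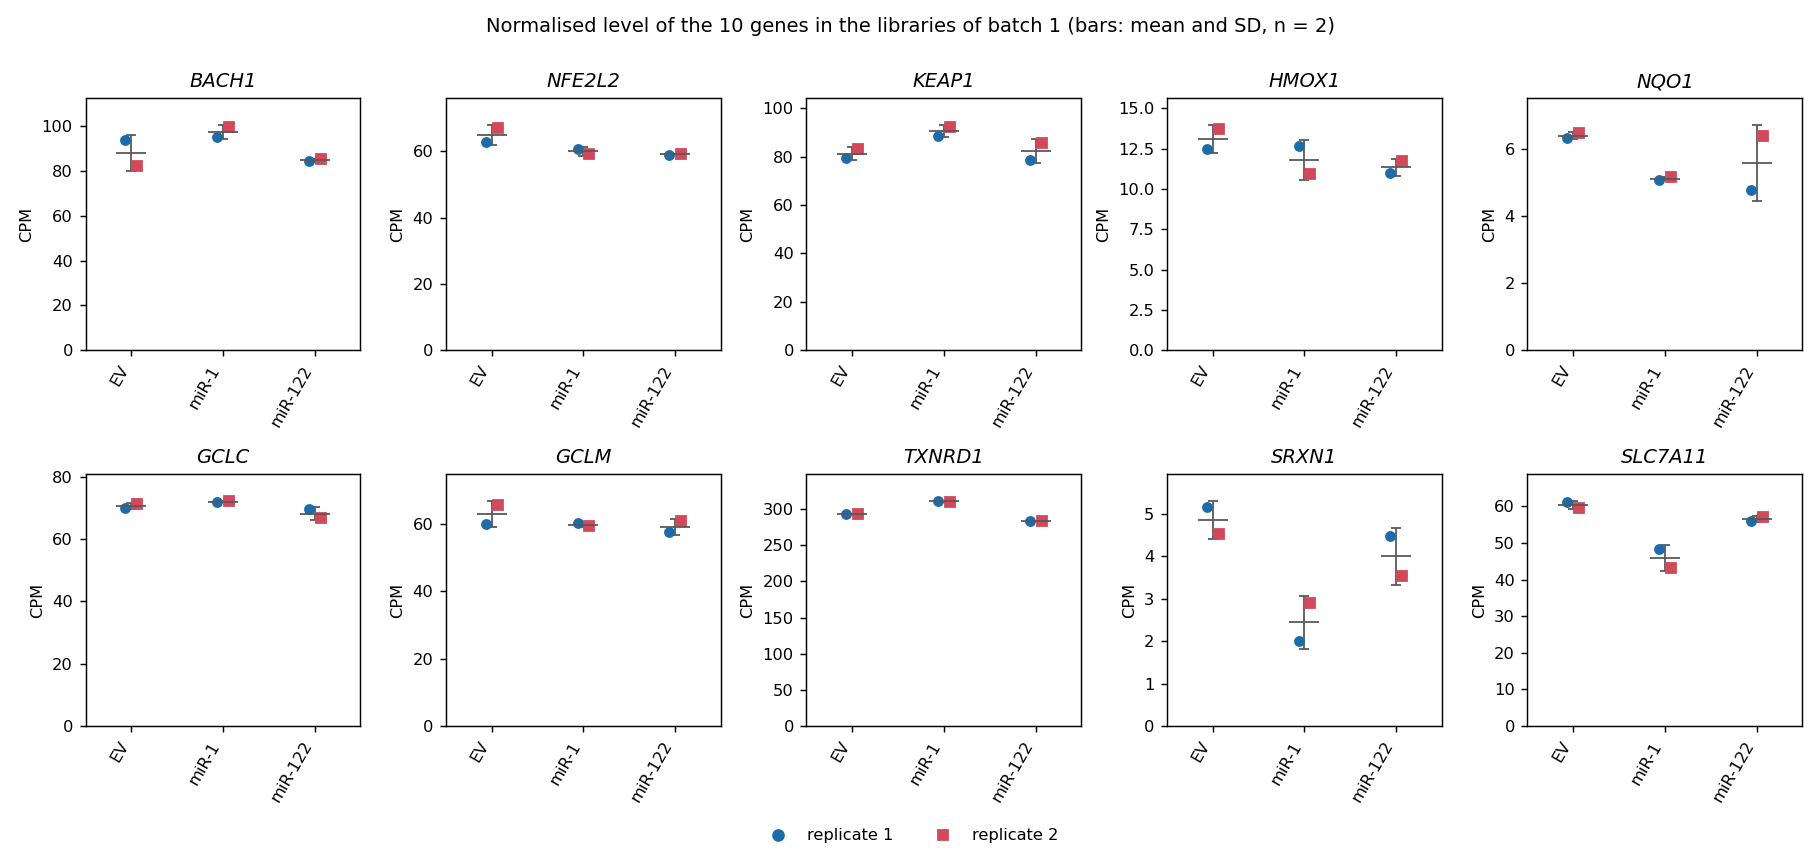
Level of each of the 10 genes in CPM in the 6 libraries of batch 1, by group. Points are libraries, marked by replicate number, and bars are the mean and SD of 2 libraries. SRXN1 and SLC7A11 were lower in both miR-1 libraries than in the 4 others.

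Genes of the 4 lists were called with the other miRNAs as well. With miR-1, 7 of 23 other NRF2 targets fell and 2 rose, where 13.7% of all tested genes fell and 10.8% rose, and the median log2 fold change of the list was near 0. Among those that fell were GSS, which completes glutathione synthesis (−0.33, edgeR adjusted p = 4.3e-05), and PIR (−0.62, 0.00063). Against the same shares of all genes, 5 of the 9 ATF4 genes fell with miR-1, led by PSAT1 of serine synthesis (−0.52, edgeR adjusted p = 3.6e-08) and ASNS (−0.28, 0.00019), and none rose. Of 13 partners and turnover genes 3 rose, with SQSTM1 (0.16, edgeR adjusted p = 0.0067) and MAFK (0.22, 0.022) ahead of CUL3, and of 7 heme and iron genes FTL (0.27, 0.00081) and FECH (0.14, 0.044) rose.

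With miR-122, ME1, which makes NADPH, rose among the NRF2 targets (0.16, edgeR adjusted p = 0.034). DDIT4 (0.28, edgeR adjusted p = 0.0019) and TRIB3 (0.27, 0.0074) rose among the ATF4 genes, and MAFG fell (−1.39, 0.024), at 37 reads or fewer per library. With miR-133a the ferritin light chain FTL fell (72.2, 83.5 and 77.2 CPM against 303, 296 and 315 in EV; −1.97, edgeR adjusted p = 5.3e-08). GSTP1 (−1.26, 1.9e-06) and IDH1 (−0.61, 2.6e-05) fell with it, and no NRF2 target on the list rose. With each miRNA of the shared seed GSTP1 was higher (0.97 with miR-302a, 1.19 with miR-372 and 0.91 with miR-373) and GSTM3, another glutathione transferase, was lower (−0.87, −1.36 and −0.85). The largest edgeR adjusted p of these 6 values was 0.00057. In these groups the summed markers of other cell types were at 17.6 to 24.6, 19.9 to 26.2 and 17.7 to 27.5 CPM, against 12.4 to 15.6 in EV. Most of each sum was COL1A1 (means of 19.2, 20.5 and 19.7 CPM, and 12.95 in EV). The part of these markers in the changes was not tested. CHAC1, which breaks down glutathione, rose with miR-372 (0.48, edgeR adjusted p = 0.039). FBXL17, an F-box protein that takes part in BACH1 turnover, fell with each of them (−0.50, −0.45 and −0.47; edgeR adjusted p = 0.022, 0.030 and 0.038), where BACH1 had −0.01, 0.01 and 0.11.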

How the data were processed

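RNA-seq counts of 24 libraries in 9 groups and 2 batches were used. The authors prepared poly(A) libraries from 1000 ng of RNA, aligned reads to hg19 with TopHat2 2.1.1, counted them over exons by strand with featureCounts, and deposited the raw counts per gene in a table per batch, along with a feature length in bases that was used here for RPKM. Tables of the authors' own comparisons (log2 fold changes, mean log2 CPM, test statistics, p-values and q-values) were deposited too and were not used. No per-sample column was left unused (0). Groups and replicate numbers are from the labels.

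Symbols were assigned by Ensembl identifier (28543 of 29794 genes). In each batch, low genes were removed by filterByExpr with a minimum count of 10. The rest were scaled by TMM and fitted with all groups by the quasi-likelihood test of edgeR 4.0.16 in R 4.3.3, with Benjamini-Hochberg adjustment over all genes tested and a threshold of 0.05. Intervals are 95% intervals from the standard error and the total degrees of freedom of that fit. The prior count of fold changes was 0.125, and CPM and RPKM use the TMM-scaled totals. The functions were tested on simulated counts. Depth sets the precision of low genes, and the intervals cover the spread between libraries. Sites and gene spans are from GENCODE v44 lifted to GRCh37, 1-based, and promoters from RefSeq on GRCh38.p14.

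The 10 members, the lists and the tests were chosen with earlier results of these data known. All 10 members are named in every comparison, and of the lists up to 5 called genes for miR-155 and up to 2 for other miRNAs by adjusted p. MAFK, PIR, GSTP1, ABCC2 and IDH1 in the direct comparisons, FTL and FTH1 with miR-155, CBR3 against other miRNAs, and PIR and CUL3 with miR-1 were named after their values were seen. Genes that the naming rule picked but that are not reported here stay in the counts.

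Whether replicate numbers pair libraries was read from the correlation of deviations from group means, with a limit of 0.1 in every pair. It was passed by miR-155 with miR-133a (0.406, 0.610 and 0.447), miR-302a (0.135, 0.140 and 0.107) and miR-372 (0.459, 0.817 and 0.730), whose shared numbers come from the labels. Alternatives were DESeq2 1.42.0 size factors, its Wald test, no filter, a likelihood ratio test in edgeR, more than 1 CPM in every library, only the compared groups, a replicate block, and leaving out each library. A crossed block in batch 1 and leaving out replicate 2 of every group in batch 2 were added after the data were seen.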

Additional observations from a re-analysis of the deposited data

Results flagged for a closer look

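The differences below stand out because the effects of a pair of miRNAs differed in a direct test (edgeR quasi-likelihood, Benjamini-Hochberg adjusted p below 0.05). BACH1 differed between miR-155 and miR-133a (−0.94), miR-302a (−1.10), miR-372 (−1.12) and miR-373 (−1.23), and in each case all 3 miR-155 libraries were below all 3 of the other group. TXNRD1 differed likewise, by −0.34, −0.42, −0.48 and −0.46, also with no overlap between groups. Between miR-122 and miR-1 the log2 fold changes were −0.20 for BACH1, −0.14 for KEAP1, −0.13 for TXNRD1, 0.71 for SRXN1 and 0.30 for SLC7A11. Groups held 2 or 3 libraries, and no formal test for outlying libraries was run. Fits with each library left out are given with the results above. In those fits the TXNRD1 difference from miR-133a and the differences between miR-122 and miR-1 did not all keep their calls.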

How the results depend on the processing

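With miR-155 the BACH1 log2 fold change lay between −1.12 and −1.06 in all alternatives and between −1.15 and −1.04 with a library left out, and it passed the threshold each time. HMOX1 with miR-155 against EV was not called in the main fit. It was called as higher with the likelihood ratio test, no filter, only the compared groups, and without replicate 2 of every group. The members called against EV stayed at 2 with any library left out for miR-155 and at 0 in every fit for miR-122. The number moved from 5 to 3 for miR-122 against miR-1 (DESeq2 Wald test; 1 to 3 with a library left out), from 0 to 1 for miR-133a (compared groups only), from 0 to 1 for miR-302a (no filter, replicate block, or without replicate 2 of every group), from 1 to 0 for miR-372 (DESeq2 Wald test, compared groups only; 0 to 1 with a library left out), and from 0 to 1 for miR-373 (no filter, compared groups only). For miR-155 it rose from 2 to 4 against miR-133a (replicate block, compared groups only, without replicate 2; 1 to 2 with a library left out), to 4 against miR-302a (without replicate 2; 2 to 4 with a library left out), and to 4 against miR-372 (replicate block, without replicate 2). The cause of these moves was not tested. Replicate numbers did not pair the libraries of the comparisons with EV or of miR-155 with miR-373. There the replicate block called 3 members for miR-155 against EV and 3 against miR-373. In batch 1 the block with crossed control numbers, a pairing that no label gives, called 4 members for miR-1 and 0 for miR-122. GCLM with miR-302a ranged from −0.35 to 0.031 with a library left out and was called without replicate 2 of every group (−0.42). Of 1173 alternative values of the 87 gene and comparison pairs never called, 86 changed sign, all with a main value of at most 0.229 in size. With 2 libraries per group in batch 1, the lone library left in a group is assumed to vary like the others.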
